A study of Mus musculus with 16 samples.

Results

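Keratins are the proteins of the intermediate filaments of epithelial cells, and the genes examined here are all protein-coding mouse genes whose symbol is Krt followed by a number alone. The keratin-associated proteins (Krtap) were left out by this rule, as were 4 genes with a letter after the number (Krt6a, Krt6b, Krt33a and Krt33b) and 2 pseudogenes. The rule found 49 genes among the 55536 in the table, 25 on chromosome 11 and 24 on chromosome 15 of GRCm38. The rule itself uses no expression value, but it was set with earlier results of these data known. The RNA came from tumors, from samples labelled MSC and from bone marrow of mice of genotype KLF K74R, in which a lysine of a KLF transcription factor is replaced by an arginine, and of KLF WT mice. There were 3 K74R and 3 WT tumors, 2 K74R and 2 WT MSC samples, and 3 K74R and 3 WT bone marrow samples, 16 libraries in all. The series set out to compare the genotypes in each tissue. The tumors are labelled MC38, a mouse line of colon adenocarcinoma cells, at a size of at most 1000 mm3. The genotype is therefore that of the mouse, while tumor RNA comes from line cells and host cells together. The labels do not spell out MSC, do not say which KLF gene carries the change, and call the mutant KO in some fields. The count table cannot show the allele. Its column names mark all 3 WT tumors, and no K74R tumor, with an R, and write KCF for WT MSC and KLF for K74R MSC. What these marks mean is not given, and anything they stand for cannot be told apart from genotype. The labels give no age, sex or strain, and nothing in them says that libraries of a group came from separate mice or cultures, so the p-values below measure the spread between these libraries, which may be technical.

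Keratin filaments are built from pairs, one acidic type I protein with one basic or neutral type II protein, and a chain without a partner is degraded. Each epithelium uses its own pairs. Simple, one-layered epithelia use type II Krt8 and Krt7 with type I Krt18, Krt19 and Krt20, though not each epithelium uses all of them. The basal layer of the epidermis uses Krt5 with Krt14, the layers above it use Krt1 with Krt10, wounded or stressed epidermis turns on Krt16 and Krt17, and hair follicles use further sets for the root sheath and the hard hair shaft. Cells of the blood and of connective tissue carry vimentin filaments instead and are usually low in keratin. KLF proteins bind DNA at CACCC and GC-rich boxes, and several of them are known regulators of epithelial genes. The 49 genes were sorted by these uses into 5 simple epithelial keratins, 32 skin keratins (3 epidermal basal, 2 activation, 6 suprabasal, 8 hair root sheath and 13 hair shaft genes) and 12 others.

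Promoter sequences are shown first for 4 simple epithelial keratins. Krt7 and Krt18 are shown because the difference between genotypes itself differed between tissues for both, Krt8 is the usual partner of Krt18, and Krt20 is a marker of intestinal epithelium. Each run is 300 bases, 250 before and 50 after the RefSeq start, on the strand of the gene, from RefSeq on GRCm38.p6, with CACCC or its reverse complement GGGTG in capitals.
Krt7, chr15:101412153-101412452, plus strand: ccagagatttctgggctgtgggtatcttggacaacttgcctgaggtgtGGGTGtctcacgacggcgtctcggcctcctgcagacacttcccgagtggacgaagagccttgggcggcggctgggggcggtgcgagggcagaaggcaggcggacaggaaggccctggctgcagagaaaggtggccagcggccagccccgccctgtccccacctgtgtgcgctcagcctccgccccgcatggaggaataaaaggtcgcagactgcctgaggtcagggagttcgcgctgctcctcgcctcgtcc
Krt18, chr15:102027966-102028265, plus strand: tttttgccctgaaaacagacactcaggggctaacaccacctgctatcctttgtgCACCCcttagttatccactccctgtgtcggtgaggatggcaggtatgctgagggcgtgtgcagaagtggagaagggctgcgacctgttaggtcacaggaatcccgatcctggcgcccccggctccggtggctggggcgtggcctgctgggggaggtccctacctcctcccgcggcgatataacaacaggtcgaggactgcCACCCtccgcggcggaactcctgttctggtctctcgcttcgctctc
Krt8, chr15:102004293-102004592, minus strand: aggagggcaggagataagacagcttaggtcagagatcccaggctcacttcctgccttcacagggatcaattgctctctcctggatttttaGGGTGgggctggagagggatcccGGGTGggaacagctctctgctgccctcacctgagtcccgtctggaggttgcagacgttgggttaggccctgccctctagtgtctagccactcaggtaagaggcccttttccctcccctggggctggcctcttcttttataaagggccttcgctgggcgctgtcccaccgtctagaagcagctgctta
Krt20, chr11:99438104-99438403, minus strand: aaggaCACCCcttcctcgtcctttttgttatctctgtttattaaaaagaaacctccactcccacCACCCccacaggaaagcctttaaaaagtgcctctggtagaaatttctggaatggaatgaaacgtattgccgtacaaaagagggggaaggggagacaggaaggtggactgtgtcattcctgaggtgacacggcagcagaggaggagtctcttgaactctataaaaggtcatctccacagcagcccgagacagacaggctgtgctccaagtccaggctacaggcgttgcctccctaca
RefSeq promoters were found for 35 of the 49 members, in 36 windows, and Krt19 and Krt80 were not among them. CACCC, searched on both strands, was in 30 of the 36 windows (83.3%) and in 57.5% of 32851 mouse promoters of the same length. TATAAA was in 18 of 36 (50%), against 13.6% of all promoters. GGGCGG, the GC box, was in 2 of 36 (5.56%), against 35.7% of all promoters, and these 2 were Krt7, with 4 matches, and Krt75, with 1. TGANTCA, an AP-1 type site, was in 2 of 36 (5.56%), against 7.81%. Windows of the simple keratins had a median of 59.7% G and C (n = 4), those of the skin keratins 46.3% (n = 23), and all promoters 52.7%. GGGCGG and CACCC do not overlap as letters on the same strand, and a match describes the letters only.

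Keratin RNA was scarce in all 3 tissues. The libraries held 14067259 to 18923751 counts, so that 3 counts in a library correspond to 0.148 to 0.23 CPM (the count scaled to the library's total and normalization factor), the limit that a count of 0 allows for counting error alone. Of the 49 genes, 10 had no count in any library and 25 reached 3 counts in at least 1 library. By tissue, 17 reached 3 counts in a tumor library, 11 in an MSC library and 9 in a marrow library. Only Krt80 and Krt222 did so in all 16 libraries. Of the 32 skin keratins, 8 were detected by this measure in tumors, 3 in MSC and 5 in marrow, and of the 5 simple keratins 4, 3 and 2. Of 58 Krtap genes, 1 reached 3 counts in a library. In MSC, 2 libraries stood apart from their own group: the first K74R library in Krt19, Krt13 and Krt36, and the second WT library in Krt18 and in endothelial genes, and the main results that rest on either are given with and without it.

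**Figure D1:**
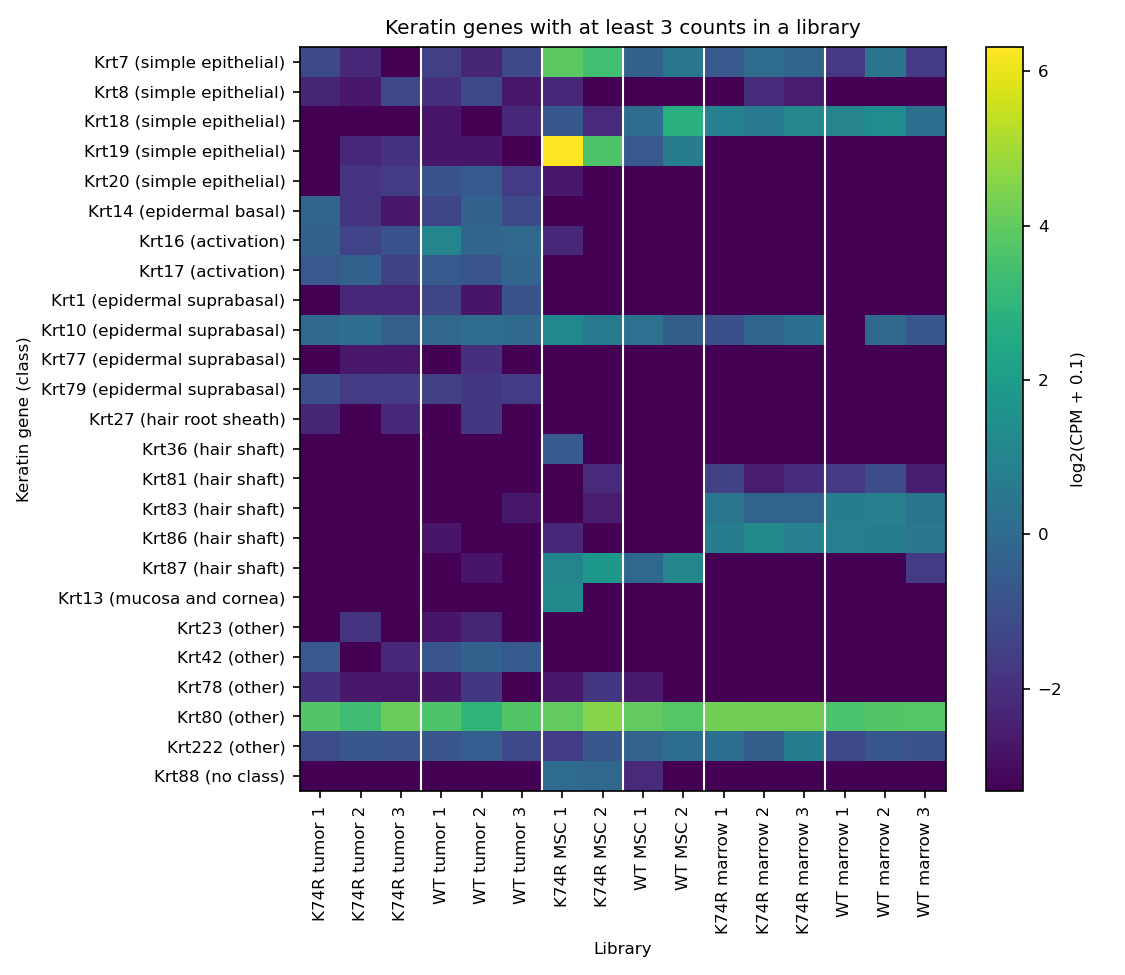
Level of the 25 keratin genes with at least 3 counts in a library (rows, with their class), as log2(CPM + 0.1), in the 16 libraries (columns, K74R left of WT in each tissue). Krt80 is bright in every column, Krt7 and Krt19 in the K74R MSC columns, Krt83 and Krt86 in marrow, and Krt14, Krt16, Krt17 and Krt42 are visible in tumors.

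Against their label as colon adenocarcinoma, the tumors held almost no simple epithelial keratin RNA. Krt8 had 2, 1 and 6 counts in the K74R tumors, against 3, 7 and 1 in the WT tumors. Its partner Krt18 had 0 counts in all 3 K74R tumors, against 1, 0 and 2 in the WT tumors. Krt20, the intestinal keratin, had 0, 3 and 4 counts in K74R tumors, against 9, 12 and 4 in WT tumors. Krt19 had at most 3 counts and Krt7 at most 7 in any tumor library. None of the 5 reached 1 CPM. Summed over the 5 genes, the simple keratins came to 0.539 ± 0.151 CPM in K74R tumors and 0.922 ± 0.183 CPM in WT tumors (SD, n = 3 each).

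Other epithelial genes of the tumors were also low. Epcam, an adhesion protein of epithelial cells and carcinomas, was at most 0.592 CPM in a tumor, and Cdx2, the intestinal transcription factor, had no count in any of the 16 libraries. Cdh1 (E-cadherin) averaged 4.22 ± 0.61 CPM in K74R tumors and 5.33 ± 1.95 CPM in WT tumors (SD, n = 3 each), and the epithelial factors Ovol2 and Elf3 averaged 5.62 ± 0.881 and 2.4 ± 0.158 CPM in K74R tumors and 6.8 ± 0.47 and 2.41 ± 1.14 CPM in WT tumors. Summed over 17 epithelial identity genes, the level was 15.5 to 20.3 CPM in K74R tumors and 16.5 to 22.1 CPM in WT tumors. Vim, which encodes vimentin, was at 1680 to 1868 CPM in K74R tumors and 1751 to 1817 CPM in WT tumors.

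Skin keratins outweighed the simple ones in the tumors, as they did in marrow, at a low level. The 32 skin genes summed to 2.8 ± 0.718 CPM in K74R tumors and 4.1 ± 0.391 CPM in WT tumors (SD, n = 3 each), and lay above the simple keratins in each of the 6 tumors. In marrow, over both genotypes, skin keratins summed to 3.37 to 4.63 CPM and simple keratins to 1.3 to 3.66 CPM. Skin keratins were the higher sum in each marrow library. Krt16, the type I activation keratin, had 0.693, 0.287 and 0.439 CPM in the K74R tumors, against 1.92, 0.789 and 0.835 CPM in the WT tumors. Its companion Krt17 had 0.545, 0.688 and 0.275 CPM in K74R tumors, against 0.555, 0.493 and 0.779 CPM in WT tumors. Krt14, the basal keratin, varied within both groups, with 0.792, 0.172 and 0.0549 CPM in K74R tumors, against 0.303, 0.69 and 0.334 CPM in WT tumors. Its partner Krt5 had 1 count in all 6 tumors together, so that the type I member of the basal pair was seen nearly alone. Krt42, a type I gene next to Krt17, had 11, 0 and 2 counts in K74R tumors, against 10, 14 and 10 in WT tumors. Krt1 and Krt79, keratins of the suprabasal layer and of hair follicle and gland openings, had 0 to 8 counts per tumor in both genotypes. Reads of Krt16 are hard to place, since 37.6% of its 50-base stretches also occur in Krt14, Krt17 or a predicted gene, as do 14.4% of those of Krt14, and the sources used here do not say how such reads were handled.

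Genes of epidermis and hair were present in part beside these keratins. Lor and Ivl, envelope proteins of the outer epidermis, had no count in the 6 tumors, and Krtdap was at most 0.149 CPM. Of 18 epidermal genes 6 were at 0 in all K74R tumors and 6 in all WT tumors, and the whole list summed to 43.6 to 48.1 CPM in K74R tumors and 43.8 to 56.5 CPM in WT tumors. The 10 hair follicle genes summed to 116.9 to 178.6 CPM in K74R tumors and 178.5 to 242.4 CPM in WT tumors, most of it from Trps1, against 38.3 to 55.3 CPM over both genotypes in marrow. Of 7 hair genes tested between tissues 5 were higher and 0 lower in tumors than in marrow, and of 7 epidermal genes 4 were higher and 3 lower. Over all genes 41.4% were higher and 40.6% lower in tumors, so these counts alone do not set the lists apart. Hoxc13, Foxn1 and Msx2, factors of the hair follicle, were at most 0.165 CPM in any tumor. Markers of other cell types also differed between libraries, with 6 endothelial genes at 105.9 to 129 CPM in K74R tumors and 139.5 to 167.2 CPM in WT tumors, and 11 blood and immune genes at 193.9 to 269.6 CPM in K74R tumors and 303.7 to 344.1 CPM in WT tumors, without overlap in either. In each of these 2 lists 6 genes were tested, of which edgeR and limma-voom called 0, DESeq2 called 2 lower, and 4 had an unadjusted p under 0.05. Over all genes in tumors edgeR called 0.0406%, and 11.2% had an unadjusted p under 0.05. Overlapping sums were seen for 6 mesothelial genes at 33.2 to 104.9 CPM in K74R tumors and 32.6 to 46.3 CPM in WT tumors, and 6 muscle genes at 6.76 to 94.3 CPM in K74R tumors and 1.82 to 60 CPM in WT tumors; their part in the keratin values was not tested. Trp63, the master factor of stratified epithelia, was present at 9.31, 7.28 and 6.21 CPM in K74R tumors, against 12.9, 15.9 and 13 CPM in WT tumors, without overlap of the groups (log2 fold change -0.86, SE 0.17, edgeR adjusted p 0.222).

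The most abundant keratin of the tumors was Krt80, a type II keratin found in many epithelia near cell junctions. Its CPM was 13.1, 10.1 and 17.7 in K74R tumors, against 12.6, 7.99 and 13.1 in WT tumors, and the groups overlapped. Per kb of exon, Krt80 made up 43% of the summed keratin level of the tumors (mean 1.94 CPM per kb), followed by Krt16 with 11.7% and Krt10 with 9.07%. This length covers all annotated exons of a gene, so levels of different genes compare only roughly. For Krt80 and Krt7 it is well above the 3919 and 4094 bases of their longest protein-coding transcripts, which lowers their values per kb. Krt10, the suprabasal type I keratin, had 12 to 18 counts in the K74R tumors and 16 to 20 in the WT tumors.

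In tumors no keratin passed the genotype test. Of 49 members 5 passed the filter on low counts, and 0 of these 5 passed the threshold (edgeR's quasi-likelihood test, adjusted p under 0.05), where 6 of 14779 genes did (0.0406%). DESeq2 and limma-voom also called 0, and 1 member had an unadjusted p under 0.05, a share of 11.2% over all genes. This was Krt16, lower in the K74R tumors by a log2 fold change of -1.28 (SE 0.50, edgeR adjusted p 0.4), with no overlap between the groups. Groups did not overlap for 17% of all genes. Without the first WT tumor, which held 38 counts of Krt16, the log2 fold change was -0.74. The log2 fold changes of the other 4 were 0.29 for Krt80 (SE 0.25), -0.08 for Krt10 (SE 0.32), -0.26 for Krt17 (SE 0.44) and -1.32 for Krt42 (SE 0.78), with a median over the 5 of -0.26, beside 0.00 over all genes. The simple keratins all fell below the filter and were not tested in tumors.

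K74R MSC held the highest summed keratin levels of the series, 119.2 and 53 CPM, against 21.3 and 27 CPM in WT MSC, which lay near the 25.7 to 26.6 CPM of K74R marrow and the 17.6 to 22 CPM of WT marrow. Krt7, the type II simple keratin of ducts and glands, was at 14.7 and 10.3 CPM in K74R MSC, against 0.676 and 1.35 CPM in WT MSC. Both K74R libraries lay far above both WT libraries, and above every other library of the series. Krt7 rose in K74R MSC, with a log2 fold change of 3.62 (SE 0.44, edgeR adjusted p 0.027), a 12.3-fold difference. It was called under 12 of 13 other settings. Without the first K74R library the log2 fold change was 3.34 and the adjusted p 0.119, a fit in which no gene of the table was called.

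Krt19, a type I keratin of simple epithelia that pairs with Krt8 or Krt7, was at 79.4 and 12.5 CPM in K74R MSC, against 0.553 and 1.56 CPM in WT MSC. The groups did not overlap, and the first K74R library lay far above the second. The log2 fold change was 5.45 (SE 1.06), and the edgeR adjusted p was 0.0557, just above the threshold. It was called under 6 of 13 other settings, over which the adjusted p ran from 2.57e-52 in edgeR without a filter to 0.145 in limma-voom. Without the first K74R library the log2 fold change was 3.57. Per kb, Krt19 was the most abundant keratin in both K74R MSC libraries, at 42.8 and 6.72 CPM per kb, with Krt7 at 2.09 and 1.46 CPM per kb there.

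Krt18 ran the other way. It was at 0.53 and 0.13 CPM in K74R MSC, against 0.984 and 6.91 CPM in WT MSC. The groups did not overlap, and the second WT library held 102 of the 129 counts of Krt18 in MSC. The log2 fold change was -3.52 (SE 1.12, edgeR adjusted p 0.127), called under 5 of 12 other settings. Without the second WT library it was -1.55. Krt8, the partner of Krt18 and Krt19, had 2 and 0 counts in K74R MSC, against 0 and 0 in WT MSC, so Krt7 was the only simple type II keratin above the floor in MSC.

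**Figure D2:**
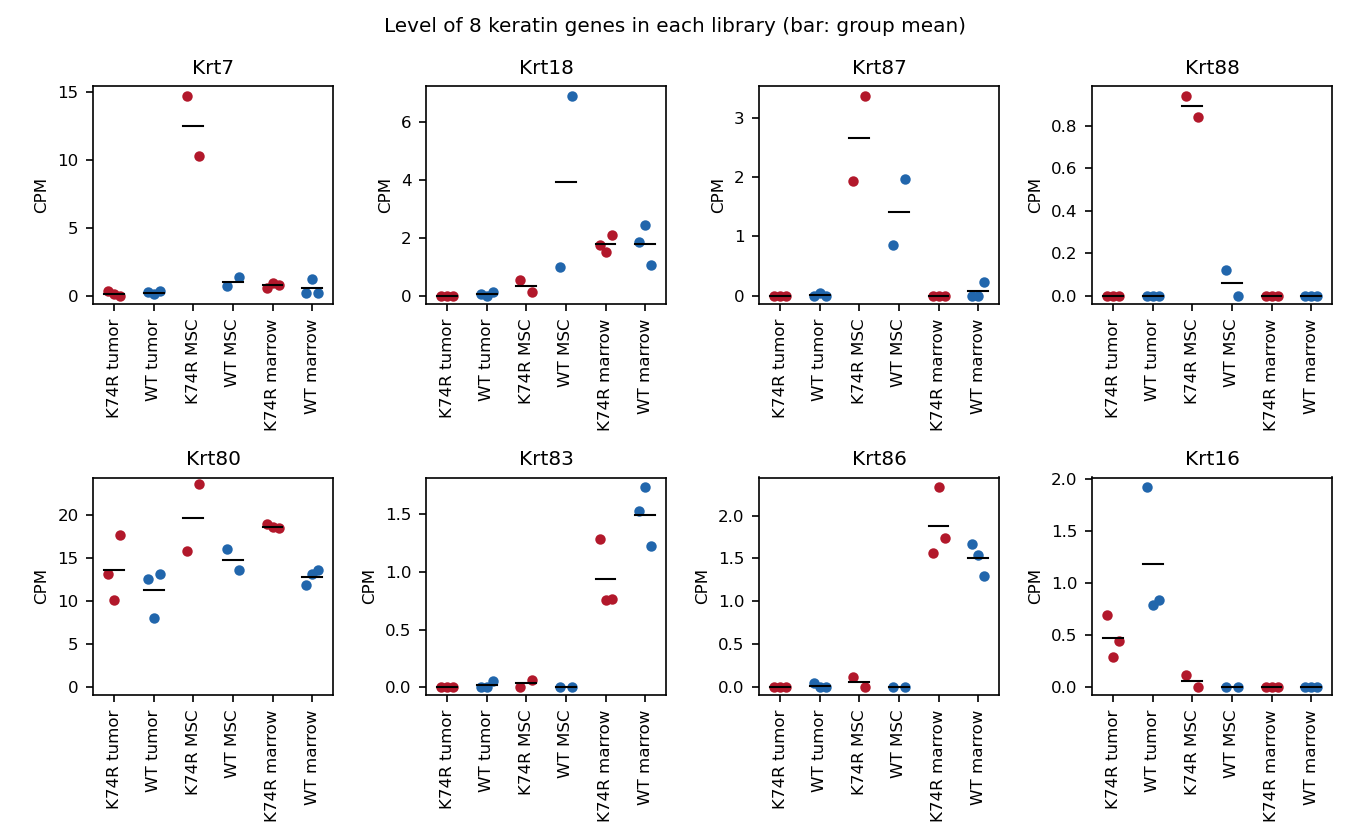
CPM of 8 keratin genes in each library (points; bars are group means; K74R red, WT blue, each panel with its own linear axis). Krt7 is high in both K74R MSC libraries, Krt18 in the second WT MSC library, Krt83 and Krt86 in marrow, Krt87 and Krt88 in MSC, Krt16 in tumors, and Krt80 lies between 7.99 and 23.6 CPM throughout.

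Among the remaining members in MSC, Krt88, a gene without an assigned class on chromosome 15, had 16 and 13 counts in K74R MSC, against 2 and 0 in WT MSC (log2 fold change 3.64, SE 0.93, edgeR adjusted p 0.0884). It had 0 counts in every tumor and marrow library. Krt87, a hair shaft type keratin, had 33 and 52 counts in K74R MSC, against 14 and 29 in WT MSC, and the groups overlapped (log2 fold change 0.91, SE 0.55). Of its 50-base stretches 36.9% occur in Krt81, Krt83, Krt86 or a further gene model. Krt10 had 37 and 22 counts in K74R MSC, against 18 and 9 in WT MSC, with a log2 fold change of 1.05 (SE 0.52), and Krt222, a keratin-like gene whose type is not assigned, had 4 and 8 counts in K74R MSC, against 12 and 15 in WT MSC, with a log2 fold change of -1.22 (SE 0.61). Krt80 was at 15.8 and 23.6 CPM in K74R MSC, against 16 and 13.5 CPM in WT MSC, and overlapped. Krt13, a type I keratin of the mouth and esophagus, had 40 counts and Krt36, a hair shaft keratin, had 10 counts in the first K74R library, and both had 0 counts in each of the other 15 libraries, so there was no replicate of either. In all, 8 of 49 members were tested in MSC and 1 passed the threshold, Krt7, where 484 of 14475 genes did (3.34%), 2.05% of all genes being called higher. DESeq2 called 3 and limma-voom 1. Unadjusted p was under 0.05 for 4 of the 8 and for 26% of all genes. The groups did not overlap for 6 of the 8 and for 59.4% of all genes. The median log2 fold change was 0.98 over the 8 and 0.00 over all genes.

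**Figure D3:**
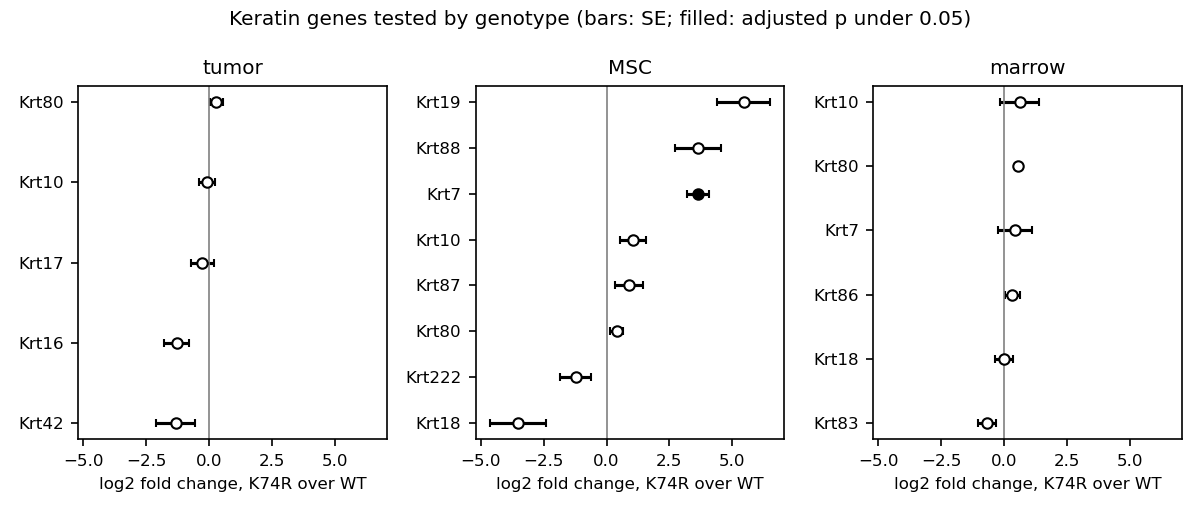
log2 fold change of K74R over WT for the keratins tested in each tissue (points, bars are 1 SE; filled points have an edgeR adjusted p under 0.05). In MSC, Krt7 at 3.62 is the filled point, with Krt19 at 5.45 above it and Krt18 at -3.52 at the bottom, while all points of tumor and marrow are open and lie between -1.32 and 0.61.

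Summed over the class, simple keratins came to 94.8 and 22.9 CPM in K74R MSC, against 2.21 and 9.82 CPM in WT MSC. Skin keratins came to 5 CPM in each K74R library, against 2.03 and 2.57 CPM in the WT libraries. Simple keratins exceeded skin keratins in all 4 MSC libraries, by the least in the first WT library. The ratio of summed type II to summed type I keratin, per kb, was 0.121 and 0.907 in K74R MSC, against 1.9 and 0.535 in WT MSC. The long summed exons of Krt80 and Krt7, both type II, lower this ratio. In tumors the same ratio ran from 1.09 to 2.43 in K74R and from 0.619 to 1.05 in WT, and in marrow from 2.26 to 3.37 in K74R and from 1.91 to 3.62 in WT.

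**Figure D4:**
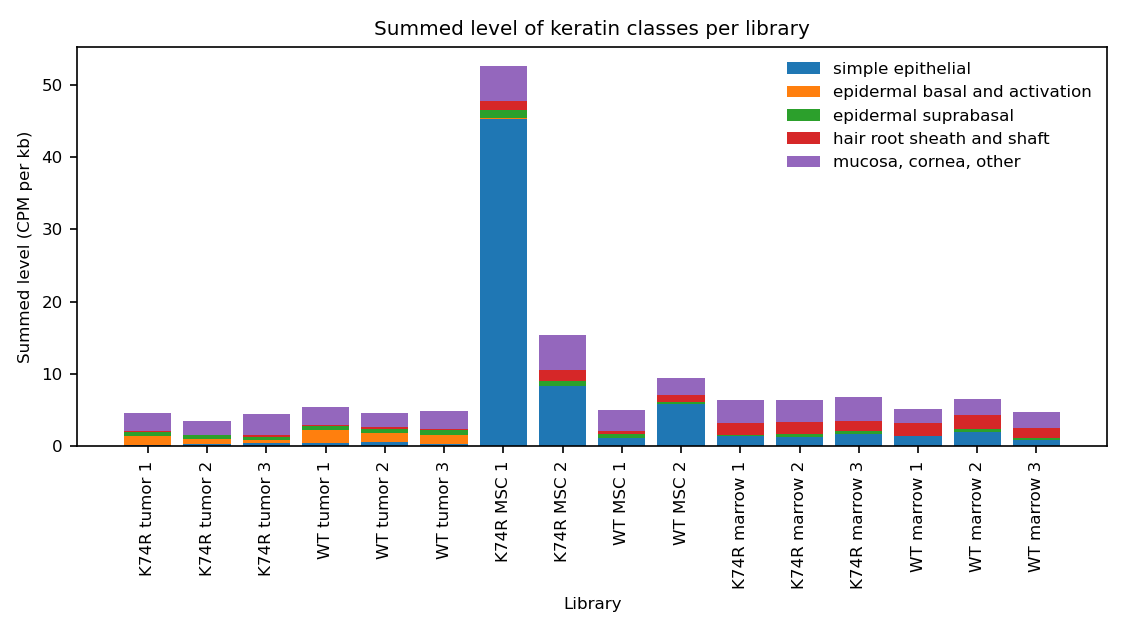
Summed keratin level in CPM per kb of exon in each library, stacked by class. The first K74R MSC library reaches 52.6, of which 45.3 is simple epithelial keratin, and the second 15.4, of which 8.28 is, while tumor and marrow libraries lie between 3.47 and 6.81.

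The MSC samples held markers of several cell types, and the levels of some of these markers differed between the K74R and WT libraries. Over all genes in MSC edgeR called 3.34% by genotype, and 26% had an unadjusted p under 0.05, the shares beside which the counts below stand. Stromal genes such as Col1a1 (collagen) and Pdgfra were high in all 4 libraries, and so were the macrophage genes Csf1r, at 433 and 860 CPM in K74R MSC, against 2021 and 1454 CPM in WT MSC, and Cd68. The 6 endothelial genes summed to 15.9 and 24.8 CPM in K74R MSC, against 290.8 and 1556 CPM in WT MSC, with 4 of 6 called lower by edgeR, 6 by DESeq2 and 0 by limma-voom. Without the second WT library 4 were still called, and without either K74R library 0 were. Pecam1 and Tek, adhesion and receptor proteins of endothelium, had log2 fold changes of -6.65 (SE 0.92, edgeR adjusted p 0.0323) and -6.68 (SE 0.94, edgeR adjusted p 0.0327). Without the second WT library these were -4.98 (edgeR adjusted p 0.00316) and -5.47 (edgeR adjusted p 0.03). The second WT library, highest in these genes, was also the one highest in Krt18. The 5 adipocyte genes summed to 643.2 and 617.6 CPM in K74R MSC, against 65.5 and 48 CPM in WT MSC, with Fabp4 (log2 fold change 3.51, SE 0.31, edgeR adjusted p 0.0196) and Plin1 (5.20, SE 0.64, edgeR adjusted p 0.0271) called higher, calls lost without the first K74R library (0.0933 and 0.107). The 9 stromal genes summed to 11011 and 14256 CPM in K74R MSC, against 7841 and 5298 CPM in WT MSC, with 0 of 8 tested called by edgeR (unadjusted p under 0.05 for 5), 0 by limma-voom and 4 by DESeq2. The 11 blood and immune genes summed to 950 and 1840 CPM in K74R MSC, against 3431 and 2389 CPM in WT MSC, with 0 of 5 tested called by edgeR (unadjusted p under 0.05 for 1), 0 by limma-voom and 1 by DESeq2. The 17 epithelial identity genes summed to 3.94 and 2.47 CPM in K74R MSC, against 1.41 and 2.51 CPM in WT MSC, and Grhl2, Elf3, Ovol2, Esrp1 and Cldn3 were at 0 in all 4 libraries. The 6 mesothelial genes were at most 0.61 CPM in sum in each MSC library. The 18 epidermal genes summed to 155.3 and 130.1 CPM in K74R MSC, against 106.1 and 79.4 CPM in WT MSC, and the 10 hair follicle genes to 107.6 and 121.8 CPM in K74R MSC, against 167 and 108.4 CPM in WT MSC. The 6 muscle genes summed to 14.8 and 7.21 CPM in K74R MSC, against 3.14 and 1.29 CPM in WT MSC. The part of these cell types in the keratin differences was not tested, and in bulk RNA fewer cells of a type and less RNA per cell cannot be told apart.

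**Figure D5:**
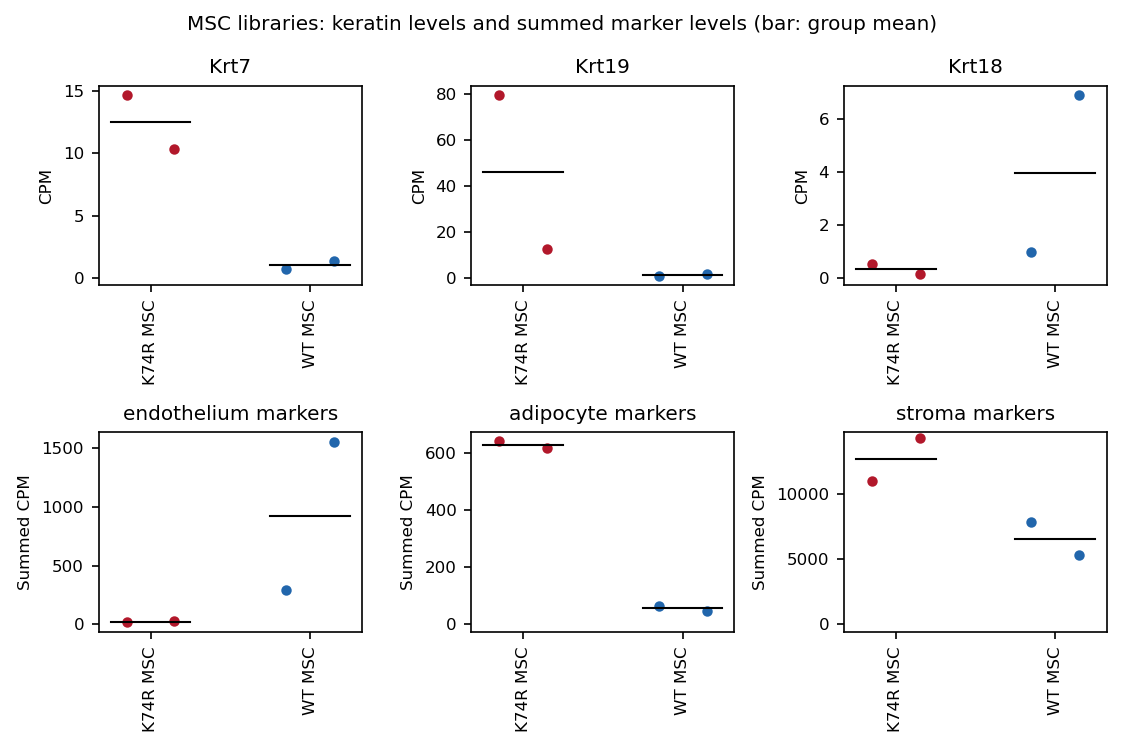
Krt7, Krt19 and Krt18 in CPM (top) and the summed CPM of endothelial, adipocyte and stromal markers (bottom) in the 2 K74R and 2 WT MSC libraries (points; bars are group means; linear axes). Krt7, Krt19, the adipocyte sum and the stromal sum are higher in both K74R libraries, and Krt18 and the endothelial sum are highest in the second WT library.

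Bone marrow expressed a small keratin set. Krt80 was found in every tissue and Krt18 also in MSC, while Krt83 and Krt86 had few counts outside marrow. Krt80 was again highest, at 18.9, 18.6 and 18.4 CPM in K74R marrow, against 11.8, 13.2 and 13.5 CPM in WT marrow. The groups did not overlap, and the log2 fold change was 0.55 (SE 0.11, edgeR adjusted p 0.0669), above the threshold. It was called under 3 of 14 other settings, without a filter on low counts (adjusted p 0.0214), in DESeq2 (0.0204) and without the second WT library (0.0461). The antisense gene Gm35853 overlaps Krt80 and had 7.86, 8.01 and 11.6 CPM in K74R marrow, against 6.07, 9.83 and 4.82 CPM in WT marrow. The sources used here do not say whether counting used strand, so reads of the 2 genes cannot be told apart with certainty.

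Krt18 was the second keratin of marrow per kb, with 26, 22 and 30 counts in K74R marrow, against 28, 38 and 14 in WT marrow, and overlapped fully (log2 fold change -0.01, SE 0.35, a sign that changed under 7 of 14 other settings). Krt8 had 0, 2 and 1 counts in K74R marrow, against 0 in each WT library, and Krt19 and Krt20 had 0 counts in all 6. Krt7 was low, at 8, 14 and 11 counts in K74R marrow, against 3, 19 and 3 in WT marrow. Marrow also held the hair shaft keratins Krt86 and Krt83, type II proteins of the hard hair fiber. Krt86 was at 1.56, 2.33 and 1.74 CPM in K74R marrow, against 1.67, 1.54 and 1.3 CPM in WT marrow, and Krt83 at 1.29, 0.753 and 0.766 CPM in K74R marrow, against 1.53, 1.73 and 1.22 CPM in WT marrow, overlapping in both genes (log2 fold changes 0.33, SE 0.30, and -0.67, SE 0.35). Krt81, their neighbour, had 1 to 4 counts in K74R marrow and 1 to 6 in WT marrow. Krt86 shares 43.3% of its 50-base stretches and Krt83 23.2% with each other, Krt81 or Krt87, so the split between these genes is uncertain. No type I hair keratin (Krt31, Krt32, Krt34 to Krt36, Krt39 or Krt40) had a count in marrow, and of the 10 hair follicle genes Foxn1, Hoxc13 and Msx2 were at 0 in all 6 marrow libraries. The list summed to 43.5 to 55.3 CPM in K74R marrow and 38.3 to 49.1 CPM in WT marrow, most of it from Trps1 and Lef1, which other tissues also express. Blood genes stood where the label puts them, with Mpo, the myeloperoxidase of granulocyte precursors, at 1222 to 1313 CPM in K74R marrow and 1370 to 1780 CPM in WT marrow.

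In marrow 0 of 6 members tested passed the threshold, where 115 of 14872 genes did (0.773%). Limma-voom also called 0 and DESeq2 called 1, Krt80, which was also the only one of the 6 with an unadjusted p under 0.05 (17.8% of all genes) and the only one whose groups did not overlap (23% of all genes). Krt222 stayed below the filter in marrow, with 15, 9 and 22 counts in K74R marrow, against 5, 8 and 6 in WT marrow. In the model of all 16 libraries, where it was kept, its log2 fold change was 1.26 (SE 0.44, edgeR adjusted p 0.296).

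Between tissues, averaged over the genotypes in the model of all 16 libraries, 13 members were tested, and most genes of the table differed, so that the counts of members are read against a high background. Tumors against marrow differed in 7 of 13 members, 3 higher and 4 lower, where 82% of all genes did (41.4% higher and 40.6% lower). The activation and basal keratins Krt16, Krt17 and Krt14 were higher in tumors and had 0 counts in all marrow libraries. Set against the limit of 3 counts over the 6 marrow libraries, tumors were at least 24.5-fold higher in Krt16, at least 16.1-fold in Krt17 and at least 11.8-fold in Krt14. Lower in tumors were Krt86 (log2 fold change -6.95, SE 0.58, edgeR adjusted p 1.89e-07), Krt83 (-6.45, SE 0.61, edgeR adjusted p 6.39e-07), Krt18 (-6.41, SE 0.82, edgeR adjusted p 7.2e-06) and Krt7 (-1.74, SE 0.56, edgeR adjusted p 0.00951). The call on Krt7 was lost without the second WT marrow library (-1.06, edgeR adjusted p 0.0998) and in the WT libraries alone (0.165).

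MSC against marrow differed in 6 of 13 members, 4 higher and 2 lower, where 77% of all genes did (36.7% higher and 40.2% lower). Krt7 was higher in MSC (log2 fold change 2.43, SE 0.47, edgeR adjusted p 0.000235), but not among the WT libraries alone (0.83, edgeR adjusted p 0.345). Krt87 was higher (6.33, SE 0.80, edgeR adjusted p 2.04e-05). Krt19 was at 0 in all marrow libraries, and MSC were at least 722-fold higher, with 1349 of 1573 counts from the first K74R library. Without that library MSC were at least 140-fold higher, with 192 of the 224 counts left from the second K74R library. The WT MSC libraries held 9 and 23 counts, at 0.553 and 1.56 CPM, where the limit over the marrow libraries was 0.0343 CPM. Both limits in folds thus rest mostly on K74R MSC. Krt88, also at 0 in marrow, was at least 14.2-fold higher in MSC, a call lost without the first WT MSC library and in DESeq2 (adjusted p 0.171), as it was against tumors. Krt86 (-6.21, SE 0.67, edgeR adjusted p 2.73e-06) and Krt83 (-6.13, SE 0.73, edgeR adjusted p 6.84e-06) were lower in MSC.

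Tumors against MSC differed in 9 of 13 members, 3 higher and 6 lower, where 72.6% of all genes did (37.8% higher and 34.7% lower). Krt14, Krt16 and Krt17 were higher in tumors, with 0 counts of Krt14 and Krt17 in MSC, against which tumors were at least 8.54-fold and at least 11.7-fold higher. Krt16 had 2 counts in MSC, both in the first K74R library (log2 fold change 5.06, SE 0.90, edgeR adjusted p 0.000472). Krt19 (-6.76, SE 0.82, edgeR adjusted p 1.62e-05), Krt18 (-5.78, SE 1.00, edgeR adjusted p 0.000146), Krt87 (-7.15, SE 0.81, edgeR adjusted p 8.58e-06), Krt7 (-4.18, SE 0.53, edgeR adjusted p 3.93e-06) and Krt88, which had 0 counts in tumors and was at least 18.6-fold higher in MSC, were lower in tumors. Krt19 was at -5.84 (edgeR adjusted p 4.59e-06) without the first K74R MSC library, and Krt18 at -4.80 (edgeR adjusted p 0.00014) without the second WT MSC library. Krt80 was slightly lower in tumors (-0.46, SE 0.17, edgeR adjusted p 0.0235), a call that 7 of 18 other settings did not make, among them library size alone (-0.25, adjusted p 0.207), each genotype alone, and fits without the first WT MSC library (0.0761), the second K74R MSC library (0.136), the second WT tumor (0.0539) or the second K74R tumor (0.0541).

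The genotype effect itself was compared between tissues in the same model. Between MSC and marrow it differed for 3 of 13 members, where 18.8% of all genes did (10.8% higher and 8.05% lower). Krt14, Krt16, Krt17, Krt19 and Krt88 had 0 counts in all marrow libraries. Their genotype effect in marrow could not be estimated, so edgeR could not call them here. For Krt19 the difference was 5.45 with an SE of 14303, which decides nothing. The effect on Krt7 was larger in MSC than in marrow by 3.21 on the log2 scale (SE 0.97, edgeR adjusted p 0.031), that on Krt18 differed by -3.50 (SE 1.08, edgeR adjusted p 0.0381) and that on Krt222 by -2.47 (SE 0.70, edgeR adjusted p 0.0239). Between tumors and MSC it differed for 1 of 13, Krt7, by -4.10 (SE 1.16, edgeR adjusted p 0.0355), where 10.6% of all genes differed (6.48% lower). Krt14 and Krt17, at 0 counts in MSC, and Krt88, at 0 counts in tumors, could not be called there. Between tumors and marrow it differed for 0 of 13, where 0.0385% of all genes did. The keratins at 0 in marrow could not be called in this comparison either, nor could Krt87, at 0 counts in K74R tumors and K74R marrow. DESeq2 and limma-voom called 0 there too, and 1 member, Krt222, had an unadjusted p under 0.05 (11.5% of all genes). Between MSC and marrow, limma-voom did not call Krt7 (adjusted p 0.0564) or Krt18 (0.072). Krt222 was not called there by edgeR without a filter on low counts (adjusted p 0.0578). Each of the 4 calls also depended on single libraries. Krt7 between MSC and marrow was lost without the first K74R MSC library (2.93, adjusted p 0.106), the first WT MSC library (2.78, 0.1), the second WT marrow library (1.84, 0.256), or the K74R marrow library numbered 1 or 3 (0.0612 for each). Krt18 was lost without any of 8 libraries, most of all the second WT MSC library (-1.52, 0.321). Krt222 was lost without the first K74R MSC library (adjusted p 0.131), the second WT MSC library (0.0848), the first WT marrow library (0.0509) or the K74R marrow library numbered 3 (0.0604), and Krt7 between tumors and MSC without either first MSC library (-3.84, 0.0975, without the K74R one and -3.69, 0.0864, without the WT one) or any of 4 tumor libraries.

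Proteins that tie keratin filaments to junctions were examined beside the keratins, as 15 linker genes. Dsp, desmoplakin, which anchors keratin filaments at desmosomes, was at 13.2, 14.9 and 14.3 CPM in K74R marrow, against 2.6, 2.31 and 2.07 CPM in WT marrow. It rose in K74R marrow (log2 fold change 2.61, SE 0.17, edgeR adjusted p 0.000261), the 1 call among 9 linkers tested there, beside 0.773% of all genes. In MSC it was at 0.235 and 0.584 CPM in K74R, against 3.57 and 8.13 CPM in WT, and fell (-3.83, SE 0.66, edgeR adjusted p 0.0471). Dsc2, a desmosomal cadherin, was at 6.77 and 3.77 CPM in K74R MSC, against 0.676 and 0.61 CPM in WT MSC, and rose (3.01, SE 0.48, edgeR adjusted p 0.0395). Of 12 linkers tested in MSC 1 rose and 1 fell, where edgeR called 3.34% of all genes. Unadjusted p was under 0.05 for 8 of these 12 and for 26% of all genes. Of 10 tested in tumors 0 were called by edgeR, DESeq2 or limma-voom. Unadjusted p was under 0.05 for 0 of them, beside 11.2% of all genes. In MSC limma-voom called 0 linkers and DESeq2 5.

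Other intermediate filament genes showed 1 call of the genotype by edgeR. Lmnb1, a nuclear lamin, was at 62.9 and 66.8 CPM in K74R MSC, against 14.1 and 12.2 CPM in WT MSC (log2 fold change 2.29, SE 0.20, edgeR adjusted p 0.0196). It was the only 1 of 8 tested there that edgeR called, beside 3.34% of all genes. Of these 8, 7 had a positive log2 fold change and 5 an unadjusted p under 0.05, beside 26% of all genes. DESeq2 called 5 of them higher and limma-voom 1. By edgeR 0 of 9 in marrow and 0 of 7 in tumors were called, with an unadjusted p under 0.05 for 1 and 0. DESeq2 called 1 in marrow and 0 in tumors, and limma-voom 0 in both. Vim was at 7217 and 4803 CPM in K74R MSC, against 2003 and 2842 CPM in WT MSC. Of 15 known regulators of keratin genes, 9 were tested in MSC, 7 in marrow and 9 in tumors, and 0 were called in any tissue by edgeR or limma-voom, with an unadjusted p under 0.05 for 2 in MSC, 1 in marrow and 5 in tumors, beside 26%, 17.8% and 11.2% of all genes in these tissues. DESeq2 called 2 in MSC, 0 in marrow and 3 in tumors. The smallest p in MSC was that of Hoxc13, a hair factor, at 2.3 and 2.47 CPM in K74R MSC, against 6.33 and 7.11 CPM in WT MSC (log2 fold change -1.50, SE 0.31, edgeR adjusted p 0.06). Klf4, a KLF factor of the epidermal barrier, was at 123.8 and 63.5 CPM in K74R MSC, against 48.5 and 39.2 CPM in WT MSC (1.09, SE 0.34, edgeR adjusted p 0.127). Klf4 was also measured at 56.3, 46.6 and 64.7 CPM in K74R tumors, against 86.9, 78 and 75 CPM in WT tumors (-0.51, SE 0.12, edgeR adjusted p 0.267).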

How the data were processed

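RNA was sequenced from 16 libraries in 6 groups, mouse tumor, MSC and bone marrow of each genotype. Per the labels' protocols, RNA was isolated with TRIzol and made into libraries with the KAPA mRNA HyperPrep kit. The deposited values are raw counts per gene. The submitters' processing notes list HISAT2 2.1.0, featureCounts 1.6.0, Trimmomatic 0.38, MultiQC and FastQC, and the build GRCm38. The sources used here name no strand setting, annotation release or rule for reads with several matches.

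All 55536 gene identifiers were matched to GENCODE M21. Each tissue was tested alone with edgeR 4.0.16 in R 4.3.3 (filterByExpr, trimmed mean of M-values, quasi-likelihood test, Benjamini-Hochberg adjustment over all genes kept, threshold 0.05); tissue contrasts and differences of the genotype effect came from a model of all 16 libraries. The SE is that of the log2 fold change. CPM uses the total count times the normalization factor (0.907 to 1.1). CPM per kb uses the length of all annotated exons of a gene, with overlaps counted once, which can exceed the length of a transcript. Detection and limits use 3 counts. These limits hold for counting error alone, because PCR copies cannot be recognised without molecular identifiers. The tests were checked on simulated data.

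By the rule for named genes, values are given for members with a group mean of at least 1 CPM, those passing a genotype or interaction test, and up to 10 passing a tissue contrast in each direction by fold change; from the 12 lists (133 entries, all matched), up to 2 risen and 2 fallen genes per genotype contrast, or 2 with the smallest p. Other named genes were chosen after their values were seen. Members, classes and lists were chosen with earlier results of these data known. Alternatives were other scalings, filters, DESeq2 1.42.0, limma-voom (limma 3.58.1), a replicate block, single genotypes, a single model and each library left out.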

Additional observations from a re-analysis of the deposited data

Results flagged for a closer look

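The genotype effect on 3 keratins differed between tissues by an interaction test over all 16 libraries (edgeR, adjusted over all genes). For Krt7 the log2 fold change of K74R over WT was 3.21 larger in MSC than in marrow and 4.10 smaller in tumors than in MSC (interaction -4.10). For Krt18 the difference of MSC minus marrow was -3.50, and for Krt222 it was -2.47. Within MSC the log2 fold changes of Krt18 (-3.52) and Krt222 (-1.22) did not pass the test. All 4 values rest on 2 K74R and 2 WT MSC libraries. In these, edgeR called 4 of 6 endothelial genes lower (limma-voom 0, DESeq2 6) and 2 of 5 adipocyte genes higher in K74R. Over all genes in MSC edgeR called 3.34%. The part of these cell types in the differences was not tested.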

How the results depend on the processing

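Krt7 in MSC kept its direction under all 13 alternatives (3.20 to 4.18). The number of keratins called in MSC (1) was 5 without a filter on low counts, 3 in DESeq2, 4 in the single model of all libraries and 0 to 2 with a library left out. In marrow (0) it was 1 without a filter, 1 in DESeq2 and 0 to 1 with a library left out. In tumors it was 0 under every alternative run. Tumor against marrow (7) gave 15 without a filter, 4 with a filter of 1 CPM and 4 in WT libraries alone. MSC against marrow (6) gave 3 in WT libraries alone. Tumor against MSC (9) gave 5 with a filter of 1 CPM and 4 in WT libraries alone. The genotype effect of MSC against marrow (3) gave 0 to 2 with a library left out, and that of tumor against MSC (1) gave 2 in limma-voom and 0 to 1 with a library left out. The sign turned for Krt18 in marrow (-0.01) with library size alone (0.0201), in limma-voom (0.0438), and with libraries left out (-0.27 to 0.28), and with tumor libraries left out for Krt10 (-0.191 to 0.0691) and Krt17 (-0.535 to 0.0289), in both without the K74R tumor numbered 3. The cause of these moves was not tested. Calls over all genes ran from 11 to 875 in marrow (115), 0 to 4431 in MSC (484), 0 to 810 in tumors (6), 4 to 603 for the effect of tumor against marrow (7), 1938 to 4416 for MSC against marrow (3428) and 1110 to 3030 for tumor against MSC (1930).

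Whether replicate numbers pair the libraries was not settled. Correlations of same-numbered deviations were -0.0369 to 0.18 in marrow, -0.0451 to 0.0395 in tumors and -0.128 in MSC. Differently numbered libraries gave -0.15 to 0.0972 in marrow and -0.0634 to 0.0488 in tumors. In MSC, with 2 libraries per group, deviations mirror each other, so the check cannot decide there. With the replicate block, 2 keratins were called in MSC, 0 in marrow and 0 in tumors, Krt18 in marrow was 0.031, and the genotype effect of MSC against marrow and of tumor against MSC had 0 calls. With the MSC numbers crossed, 3 keratins and 1943 genes were called (chosen after seeing the data).

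With 3 counts as the limit, keratins under 0.148 to 0.23 CPM could not be compared, and 41 to 44 of the 49 genes were not tested between genotypes within a tissue. Where a left-out library left 1 in its group, that library was taken to vary like the others.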
